A study of Homo sapiens with 16 samples.

Results

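The interferon receptor, JAK-STAT and feedback genes are 9 genes that carry a signal from an interferon outside the cell to the nucleus and then shut it off. They were chosen by name, by a rule that uses no measured value, though with earlier results of these data known: the receptor chains IFNAR1, IFNAR2 and IFNGR1, the kinases JAK1 and TYK2, the transcription factors STAT2 and STAT3, and the feedback genes SOCS1 and USP18. They are 9 of the 32080 gene symbols on the array and are read by 12 of its 50599 distinct features. Expression was measured on 16 one-colour microarrays of RPMI-8226 and MM.1S, established human multiple myeloma cell lines. Each line was cultured for 6 days with the solvent DMSO, with 1 µM GSK126 (an inhibitor of EZH2, which methylates lysine 27 of histone H3), with 1 µM UNC0638 (an inhibitor of G9a, which methylates lysine 9 of histone H3), or with both inhibitors at 1 µM each. Each of the 8 groups has 2 replicate arrays, which the study calls biological replications and the labels only number, so p-values measure the spread between these arrays, whose source was not described further. The study set each inhibitor and the combination against DMSO, and the present comparisons ask how the genes of the interferon signalling chain itself differed.

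Type I interferons bind a receptor of IFNAR1 and IFNAR2, whose tails hold the kinases TYK2 and JAK1. The kinases phosphorylate STAT proteins, and a complex that contains STAT2 and IRF9 binds the interferon-stimulated response element (ISRE) in front of interferon-stimulated genes. IFNGR1 is the ligand-binding chain of the type II interferon receptor, which also uses JAK1, while STAT3 is best known as the factor behind interleukin-6, a growth factor of myeloma cells. SOCS1 blocks the kinases, and USP18 binds IFNAR2 to displace JAK1 and also removes the ubiquitin-like protein ISG15 from its targets.

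Levels are given on 1 scale throughout: the log2 of a spot's intensity minus the log2 of the 75th percentile of its array, so that 0 is the level of that percentile. A level can be compared between arrays for the same probe, but not between probes. A gene was called changed when the Benjamini-Hochberg adjusted p of limma's moderated test, taken over all probes of the fit, was under 0.05. For 8 of the 9 genes every probe was well above background on all 16 arrays. USP18 was above background on 11 arrays, which were the 8 of MM.1S, 1 of the RPMI-8226 arrays with GSK126 and both of those with the combination. No spot of any of the 9 genes was saturated.

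Across all arrays between 46.5% and 52.8% of spots were well above background, and the 75th percentile of the intensity ran from 256 to 349 in RPMI-8226 and from 431 to 477 in MM.1S. The 8 plasma cell markers, among them SDC1, TNFRSF17, XBP1 and IRF4, were above background on every array, whereas the B cell marker PAX5 was on none. The summed level of the plasma cell markers was lower with the combination, at 7.48 to 7.88 against 8.13 to 8.39 with DMSO in RPMI-8226 and at 8.54 to 8.56 against 9.07 to 9.11 in MM.1S, and limma called 3 of the 8 lower in RPMI-8226 (5.17% of all probes) and 8 of 8 in MM.1S (31.7%). The T cell markers CD3D and CD3E had a summed level of 2.35 to 2.52 with the combination against -2.55 to -2.51 with DMSO in RPMI-8226, and of -1.93 to -1.84 against -3.44 to -2.77 in MM.1S. The MM.1S rise was that of CD3E alone, from -4.65 and -5.06, not above background, to -2.50 and -2.43. CD3D there read -3.22 and -4.01 with DMSO and -3.29 and -3.68 with the combination. The B cell marker MS4A1 rose with the combination, at least 17.2-fold in RPMI-8226 (limma adjusted p = 0.000563) and at least 2.76-fold in MM.1S (limma adjusted p = 0.000353). In MM.1S its probe was tested only because it was above background with the combination, so that call is not independent of the filter. The myeloid sum of CD14 and CSF1R was 1.85 to 2.27 with the combination against -0.93 to -0.12 with DMSO in RPMI-8226, and -2.94 to -2.76 against -2.87 to -2.80 in MM.1S, where CSF1R was on no array above background. The epithelial marker EPCAM was lower with the combination, at 3.59 to 3.89 against 4.80 to 5.26 in RPMI-8226 and not above background, against -2.97 and -2.49 with DMSO, in MM.1S. The part of these markers in the results below was not tested, and in bulk RNA fewer cells of a kind and less RNA per cell cannot be told apart. Each line was on its own slide, each treatment in its own column of the slide and each replicate number in its own row, so that line and slide, and treatment and column, cannot be told apart.

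With the combination, more of the 9 genes were called in MM.1S than in RPMI-8226, and most of the called genes were higher. In MM.1S 7 of 9 were called, against 53.9% of all probes tested: IFNGR1, JAK1, STAT2, STAT3, SOCS1 and USP18 rose and IFNAR2 fell. In RPMI-8226 2 of 9 were called, IFNGR1 and USP18, both higher, against 12.4% of all probes. USP18 entered that fit only through the combination, the only group with both arrays above background, so its call is not independent of the filter. Under a filter on all arrays it was not tested. Counts of the 9 genes are of leading probes, and a further STAT3 probe was also called higher with the combination in RPMI-8226. The median log2 fold change of the 9 genes was 0.47 in MM.1S and 0.41 in RPMI-8226, where the medians of all probes were -0.12 and -0.13. In MM.1S 6 of 9 genes were called higher and 1 lower, against 22.2% of all probes called higher and 31.7% lower, and the corresponding shares in RPMI-8226 were 7.2% and 5.17%. That background depends on the scaling: of all probes called, 41.2% were higher in MM.1S and 58.2% in RPMI-8226, and with the percentile taken over detected probes these became 57.5% and 75.2%, with medians of all probes of 0.07 and 0. Under that scaling the count of the 9 genes was again 6 higher and 1 lower in MM.1S and 2 higher in RPMI-8226. The arrays of the combination and of DMSO did not overlap for 8 of 9 genes in either line, which also held for 78.8% of all probes in MM.1S and 61.2% in RPMI-8226.

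**Figure D1:**
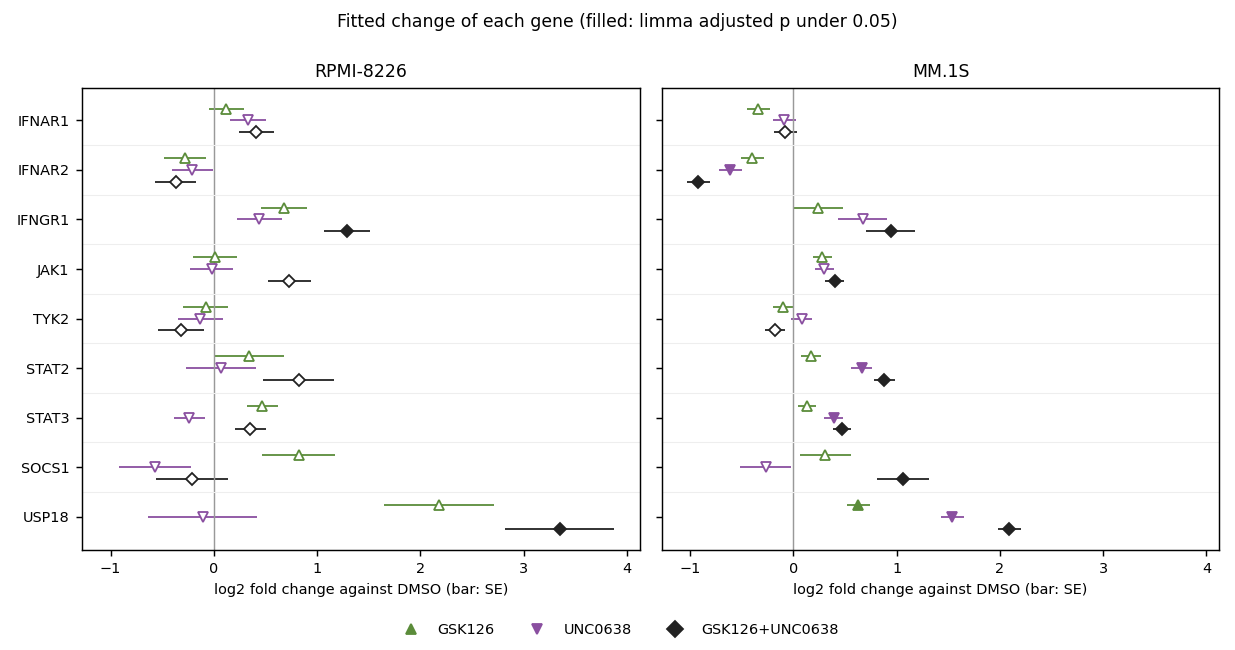
Fitted log2 fold change against DMSO of the 9 genes (y axis, leading probe of each) for each treatment, in RPMI-8226 (left) and MM.1S (right). Bars are the standard error of the fit over 8 arrays per line and filled symbols have a limma adjusted p under 0.05. In MM.1S the combination (diamonds) is filled for 7 genes, with USP18 at 2.09 and IFNAR2 at -0.92, and in RPMI-8226 for IFNGR1 and USP18 only, where the USP18 value of 3.35 is measured from DMSO arrays that were not above background.

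Fewer genes were called with a single inhibitor; the difference between the lines is tested further on. UNC0638 alone gave 4 calls of 9 in MM.1S (STAT2, STAT3 and USP18 higher, IFNAR2 lower; 29.3% of all probes) and 0 of 9 in RPMI-8226 (0.634%), where limma found 0 of the 9 at an unadjusted p under 0.05. GSK126 alone gave 1 call in MM.1S, USP18 (7.58%), and 0 in RPMI-8226 (0.599%), where 3 genes had an unadjusted p under 0.05. The MM.1S call with GSK126 was lost whenever any of the 8 arrays was left out. All comparisons of a line against DMSO share the same pair of DMSO arrays.

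The combination was next compared with each inhibitor alone. In MM.1S it exceeded GSK126 for STAT2, STAT3 and USP18 and was below it for IFNAR2, 4 of 9 genes against 37.1% of all probes. The STAT3 call there was lost without any one array but combination replicate 2, and the IFNAR2 call without GSK126 replicate 1, GSK126 replicate 2 or combination replicate 2. Quantile normalization also lost both calls. The STAT3 call was further lost with no filter on dim probes or only the compared groups, and the STAT2 and STAT3 calls in 1 fit of both lines. Against UNC0638 the combination was higher for SOCS1 and USP18, 2 of 9 against 13.5%, and leaving out 1 array left 0 or 1 of these calls. In RPMI-8226 the combination differed from GSK126 for 0 of 9 genes (2.55% of all probes; 3 genes had an unadjusted p under 0.05) and from UNC0638 for USP18 alone (3.39%). With the replicate number as a block IFNGR1 joined USP18 in that last comparison, giving 2 calls. A departure from additivity of the log2 effects, the combination's change minus the sum of the changes with each inhibitor, was called by limma for 0 of 9 genes in RPMI-8226 (0.164% of all probes) and 0 of 9 in MM.1S (0%), with 1 gene at an unadjusted p under 0.05 in each line. These were JAK1 in RPMI-8226, with a departure of 0.74 (95% confidence interval 0.04 to 1.44), and SOCS1 in MM.1S, with 1.02 (0.16 to 1.88).

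Among the receptor chains, IFNGR1 rose with the combination in both lines. In RPMI-8226 its level was 1.03 and 1.26 on the DMSO arrays, 1.86 and 1.79 with GSK126, 1.37 and 1.81 with UNC0638, and 2.22 and 2.64 with the combination. In MM.1S it was 1.10 and 1.30 with DMSO, 1.28 and 1.61 with GSK126, 1.65 and 2.09 with UNC0638, and 1.88 and 2.40 with the combination. The combination arrays lie above both DMSO arrays in each line, while in MM.1S the GSK126 and DMSO arrays overlap. The rise was 2.44-fold in RPMI-8226 (log2 1.29 ± 0.22 SE, limma adjusted p = 0.0151) and 1.92-fold in MM.1S (log2 0.94 ± 0.24, limma adjusted p = 0.017). The RPMI-8226 call was lost without DMSO replicate 1 or combination replicate 2, and the MM.1S call without DMSO replicate 1 or combination replicate 2, with adjusted p up to 0.0754 and 0.0864, and the MM.1S call also with no filter on dim probes. Ordered by mean, the 8 groups ran from 2.43 (RPMI-8226, combination) to 1.14 (RPMI-8226, DMSO), and every neighbouring pair in that order overlapped. The probe lies at chr6:137518878-137518937 on the minus strand (GRCh37, the build of the array files; its exon or UTR class was not looked up here, nor was that of the other probes).

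IFNAR2 was the gene that fell. In MM.1S its leading probe (A_33_P3337540, chr21:34635002-34635061, plus strand) read 4.10 and 3.99 with DMSO, 3.67 and 3.62 with GSK126, 3.48 and 3.38 with UNC0638, and 3.25 and 2.99 with the combination. These groups do not overlap with each other and stand in that order. The combination lowered it to 0.527 of the DMSO level (log2 -0.92 ± 0.11, limma adjusted p = 0.00113), a fall larger than the median shift of all probes, and UNC0638 alone to 0.653 (log2 -0.61 ± 0.11, limma adjusted p = 0.0117; lost without DMSO replicate 1 or UNC0638 replicate 2). In RPMI-8226 the arrays read 3.75 and 4.16 with DMSO, 3.47 and 3.86 with GSK126, 3.66 and 3.82 with UNC0638, and 3.57 and 3.58 with the combination. The combination arrays there were below both DMSO arrays, but the difference of -0.37 ± 0.20 did not pass the test (limma adjusted p = 0.253).

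IFNAR2 has 2 further probes, and all of its probes fell with the combination in MM.1S. A_33_P3361457 (chr21:34625061-34625120) changed by -0.78 (limma adjusted p = 0.000699) and A_23_P211080 (chr21:34635969-34636028) by -0.74 (limma adjusted p = 0.00256). A_33_P3361457 was also called lower with GSK126 alone in MM.1S (-0.38, limma adjusted p = 0.0446) and with the combination against UNC0638 (-0.35, limma adjusted p = 0.041), where the leading probe was not. In RPMI-8226 the further probes differed in direction with the combination. The mean of A_33_P3361457 went from 2.98 with DMSO to 2.43, like the leading probe downward, and that of A_23_P211080 from -2.4 up to -2.21. The probes differed between the lines: with DMSO, A_23_P211080 was in RPMI-8226 at 0.352 of its MM.1S level (limma adjusted p = 0.000185), whereas the leading probe differed by -0.09 and A_33_P3361457 by -0.33, neither past the test. Within an array, A_23_P211080 minus the leading probe was -6.51 to -5.73 in RPMI-8226 and -5.02 to -4.72 in MM.1S, ranges that do not overlap. The array's design names another transcript of the gene for A_23_P211080 than for the other probes.

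**Figure D2:**
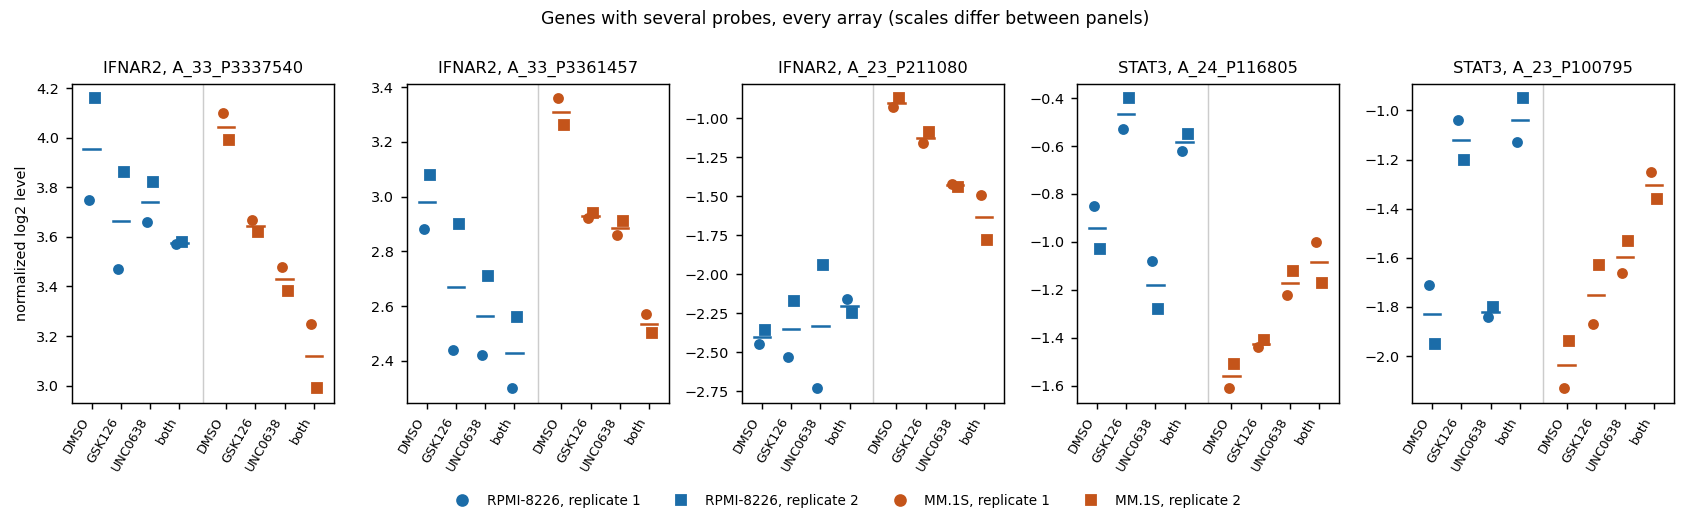
Normalized log2 level (y axis) of the 3 IFNAR2 probes and the 2 STAT3 probes on every array, by treatment ("both" is the combination), with bars at the mean of each pair; the y axes differ between panels. In MM.1S each IFNAR2 probe is lowest with the combination, and A_23_P211080 alone is lower in all RPMI-8226 arrays than in all MM.1S arrays; both STAT3 probes are higher with the combination than with DMSO in each line.

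IFNAR1, the partner chain of IFNAR2, differed between the lines and was called for no treatment with the settings used here. It read 0.34 and -0.09 with DMSO, 0.29 and 0.20 with GSK126, 0.44 and 0.47 with UNC0638, and 0.52 and 0.55 with the combination in RPMI-8226. In MM.1S it read 1.98 and 2.07 with DMSO, 1.61 and 1.76 with GSK126, 1.85 and 2.03 with UNC0638, and 1.88 and 2.01 with the combination. Every MM.1S array is above every RPMI-8226 array, and the DMSO level in RPMI-8226 was 0.268 of that in MM.1S (log2 -1.90 ± 0.14, limma adjusted p = 1.22e-06). With GSK126 in MM.1S, where the arrays do not overlap those of DMSO, it differed by -0.34 ± 0.11 (limma adjusted p = 0.11), and it was called with normexp background correction, with the replicate block or with an intensity-dependent prior (adjusted p down to 0.0397). The combination's difference was 0.41 in RPMI-8226 (95% confidence interval 0.00 to 0.83, limma adjusted p = 0.164), and the MM.1S value was -0.08 (-0.34 to 0.18, limma adjusted p = 0.558). The probe lies at chr21:34732064-34732123 on the plus strand (GRCh37).

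Of the kinases, JAK1 rose with the combination in MM.1S, from -0.26 and -0.38 with DMSO to 0.11 and 0.04. The arrays with GSK126 (-0.11 and 0.03) and with UNC0638 (-0.01 and -0.04) also lay above those with DMSO. The change with the combination was 1.32-fold (log2 0.40 ± 0.09, limma adjusted p = 0.0116), and the call was lost without DMSO replicate 2 or combination replicate 1 and in 1 fit of both lines. In RPMI-8226 the level was -1.14 and -1.42 with DMSO, -1.45 and -1.09 with GSK126, -1.21 and -1.38 with UNC0638, and -0.36 and -0.74 with the combination. The combination arrays there stand apart above the other 6, which overlap, and their difference from DMSO of 0.73 ± 0.21 missed the threshold (limma adjusted p = 0.0666; it was called with normexp background correction, with an intensity-dependent prior, or in 1 fit of both lines). With DMSO, JAK1 was at 0.516 of the MM.1S level in RPMI-8226 (log2 -0.96 ± 0.16, limma adjusted p = 0.000533). The probe lies at chr1:65299773-65299832 on the minus strand (GRCh37).

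TYK2 was called in none of the comparisons. It is shown with its sequence because its probe is the only one of the 12 that crosses an intron. The 60 bases are spread over 337 bases of the genome (chr19:10464877-10465213, minus strand, GRCh37).
TYK2 probe: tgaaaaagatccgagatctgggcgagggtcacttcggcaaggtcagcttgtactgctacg
Its level was -0.41 and -0.45 with DMSO, -0.20 and -0.81 with GSK126, -0.47 and -0.64 with UNC0638, and -0.87 and -0.62 with the combination in RPMI-8226. In MM.1S it was -0.63 and -0.75 with DMSO, -0.75 and -0.82 with GSK126, -0.56 and -0.66 with UNC0638, and -0.79 and -0.94 with the combination. All 16 arrays lie within 0.75 log2 units, the narrowest range of the 9 genes, and every neighbouring pair of groups overlaps. The change with the combination was -0.32 in RPMI-8226 (95% confidence interval -0.85 to 0.22) and -0.18 in MM.1S (-0.41 to 0.05).

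STAT2 rose in MM.1S with UNC0638 and with the combination. Its level there was 4.71 and 4.79 with DMSO, 4.87 and 4.96 with GSK126, 5.31 and 5.50 with UNC0638, and 5.56 and 5.70 with the combination, 4 groups that do not overlap. UNC0638 raised it 1.58-fold (log2 0.66 ± 0.10, limma adjusted p = 0.0078) and the combination 1.84-fold (log2 0.88 ± 0.10, limma adjusted p = 0.00102), while GSK126 gave 0.17 (limma adjusted p = 0.344). The UNC0638 call was lost in 1 fit of both lines. In RPMI-8226 it was 2.54 and 3.61 with DMSO, 3.24 and 3.59 with GSK126, 3.04 and 3.24 with UNC0638, and 3.98 and 3.82 with the combination. The RPMI-8226 DMSO arrays differ from each other by more than any other pair of replicates of this gene, 1.07 log2 units, and the combination's difference of 0.82 ± 0.34 did not pass the test (limma adjusted p = 0.158), though without DMSO replicate 2 it did (limma adjusted p = 0.0322). Every MM.1S array is above every RPMI-8226 array, and the DMSO level in RPMI-8226 was 0.314 of that in MM.1S (log2 -1.67 ± 0.28, limma adjusted p = 0.000413). The probe lies at chr12:56735384-56735443 on the minus strand (GRCh37).

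STAT3 is read by a pair of probes. With the combination against DMSO both were higher in each line, though not always called together, and in RPMI-8226 they differed in sign, with neither called, for UNC0638 against DMSO (-0.24 and 0.01) and for the combination against GSK126 (-0.12 and 0.08). The leading probe, printed because 2 reading frames of its strand have no stop, is at chr17:40474404-40474463 on the minus strand (GRCh37).
STAT3 probe A_24_P116805: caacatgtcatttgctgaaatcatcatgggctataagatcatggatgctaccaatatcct
The second, A_23_P100795 (chr17:40465923-40465982), is spotted 10 times on each array and has a stop in every reading frame of its strand.

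In MM.1S the leading STAT3 probe read -1.61 and -1.51 with DMSO, -1.44 and -1.41 with GSK126, -1.22 and -1.12 with UNC0638, and -1 and -1.17 with the combination. The UNC0638 and combination arrays overlap each other and lie above the rest. UNC0638 raised it 1.31-fold (log2 0.39 ± 0.09, limma adjusted p = 0.0273) and the combination 1.39-fold (log2 0.47 ± 0.09, limma adjusted p = 0.00733), and the second probe was called as well, at 0.43 (limma adjusted p = 0.0426) and 0.73 (limma adjusted p = 0.0038). The UNC0638 call of the leading probe was lost without any one of the 4 DMSO and UNC0638 arrays or the GSK126 arrays. It was also lost with no filter on dim probes or with only the compared groups in the fit.

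In RPMI-8226 the leading STAT3 probe read -0.85 and -1.03 with DMSO, -0.53 and -0.40 with GSK126, -1.08 and -1.28 with UNC0638, and -0.62 and -0.55 with the combination. The arrays with GSK126, alone or combined, are above those with DMSO, which are above those with UNC0638. The combination's difference of 0.35 ± 0.15 did not pass the test (limma adjusted p = 0.161), whereas the second probe rose by 0.79 ± 0.16 (limma adjusted p = 0.0247). With the mean over both probes STAT3 was called as well (limma adjusted p = 0.0412). With DMSO the leading probe was 1.54-fold higher in RPMI-8226 than in MM.1S (log2 0.62 ± 0.12, limma adjusted p = 0.00102), and the second probe differed by 0.20 (limma adjusted p = 0.238).

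**Figure D3:**
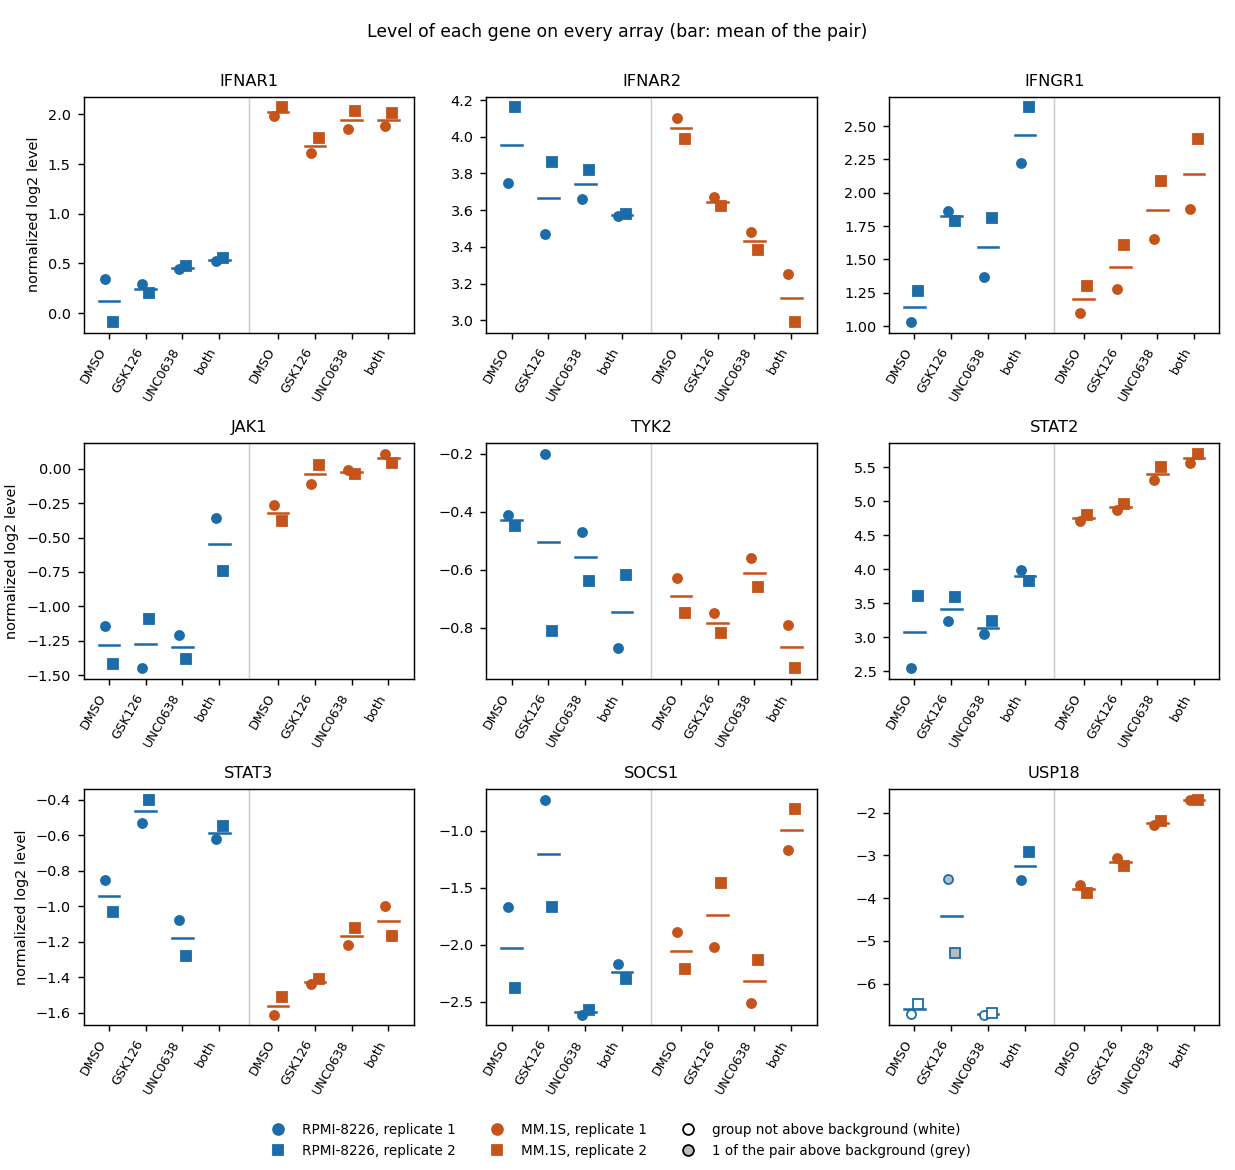
Normalized log2 level (y axis, 0 is the 75th percentile of the array) of each gene's leading probe on all 16 arrays, by line and treatment ("both" is the combination); circles are replicate 1, squares replicate 2 and bars the mean of the pair. White marks a group with neither array above background and grey a group with 1 of 2, which occur for USP18 in RPMI-8226 only; IFNAR1 and STAT2 are higher on every MM.1S array than on any RPMI-8226 array.

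USP18 had the widest range of the 9 genes, 5.03 log2 units, and in MM.1S it rose with every treatment. Its level there was -3.68 and -3.89 with DMSO, -3.07 and -3.24 with GSK126, -2.30 and -2.20 with UNC0638, and -1.70 and -1.70 with the combination, 4 groups that do not overlap. The rise was 1.55-fold with GSK126 (log2 0.63 ± 0.11, limma adjusted p = 0.0281), 2.90-fold with UNC0638 (log2 1.54 ± 0.11, limma adjusted p = 0.00102) and 4.26-fold with the combination (log2 2.09 ± 0.11, limma adjusted p = 0.000144). The combination was also above UNC0638 alone, by 0.55 ± 0.11 (limma adjusted p = 0.0315). That last call was lost in each of the fits that left out 1 of the 6 GSK126, UNC0638 and combination arrays. With normexp background correction the changes against DMSO were smaller, 0.25 with GSK126 (limma adjusted p = 0.0757), 0.76 with UNC0638 and 1.16 with the combination.

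In RPMI-8226 USP18 was near the detection limit. With DMSO it read -6.71 and -6.48 and with UNC0638 -6.72 and -6.68, none of them well above background. With GSK126 it read -3.54 and -5.29, 1 of them above background, and with the combination -3.58 and -2.91, both above. The combination level was therefore given as a bound: at least 2.22-fold that of DMSO (means -3.24 and -6.59, limma adjusted p = 0.0123) and at least 2.25-fold that of UNC0638 (means -3.24 and -6.70, limma adjusted p = 0.023). For such a bound each dim array was set to the lowest signal among its probes well above background, or to the probe's own signal where that was higher. The bound holds on this scale only. Normexp correction adds an offset of 50 to each intensity, so its changes can be smaller than the bound. The fitted log2 difference of 3.35 from DMSO became 0.72 with normexp background correction (limma adjusted p = 0.0312), and that of 3.46 from UNC0638 became 0.79 (limma adjusted p = 0.0446). The call against DMSO was lost without DMSO replicate 1, DMSO replicate 2 or combination replicate 2 (adjusted p up to 0.0655), and the call against UNC0638 without any one of the 6 DMSO, UNC0638 and combination arrays (adjusted p up to 0.115). The probe entered the full RPMI-8226 fit only through the combination group, so these calls are not independent of the filter. GSK126 alone gave a limma adjusted p of 0.199. Without the replicate 2 array of GSK126 it passed the threshold.

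With DMSO, USP18 was at least 1.52-fold higher in MM.1S than in RPMI-8226 (means -3.79 and -6.59, limma adjusted p = 0.000252). That call was lost with normexp correction (log2 -0.26, limma adjusted p = 0.143), to which the bound does not apply. The probe lies at chr22:18659618-18659677 on the plus strand (GRCh37). USP18 has a near-identical relative, USP41, and how much of the signal belongs to each was not tested.

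SOCS1 rose in MM.1S with the combination. It read -1.89 and -2.21 with DMSO, -2.02 and -1.46 with GSK126, -2.51 and -2.13 with UNC0638, and -1.17 and -0.81 with the combination. The combination arrays lie above the other 6, which overlap. The rise was 2.09-fold against DMSO (log2 1.06 ± 0.25, limma adjusted p = 0.0133; lost without DMSO replicate 2 or combination replicate 2) and 2.51-fold against UNC0638 (log2 1.33 ± 0.25, limma adjusted p = 0.0287; lost without any one of the 6 DMSO, UNC0638 and combination arrays). In RPMI-8226 it read -1.67 and -2.38 with DMSO, -0.73 and -1.67 with GSK126, -2.61 and -2.57 with UNC0638, and -2.17 and -2.30 with the combination. The combination arrays fall between those with DMSO, and the difference was -0.21 (95% confidence interval -1.04 to 0.62, limma adjusted p = 0.713). The probe lies at chr16:11348384-11348443 on the minus strand (GRCh37).

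Of the 7 genes with a promoter window, SOCS1 alone had a match to an interferon motif. RefSeq windows (GRCh38.p14) of 300 bases, 250 before a transcription start and 50 after it, were given for 7 of the 9 genes, 11 windows in all. USP18 and IFNAR2 were not among them. The ISRE core GAAANNGAA and the gamma-activated site TTCNNNGAA were searched on both strands, and are in 8.11% and 7.66% of the 35116 windows of all genes. SOCS1 has 1 ISRE core match, 104 bases before its start, and the windows of IFNAR1, IFNGR1, JAK1, STAT2, STAT3 and TYK2 have none of either. The bases around it, at chr16:11256259-11256367 on the minus strand (GRCh38.p14), are printed with the match in capitals.
SOCS1 promoter: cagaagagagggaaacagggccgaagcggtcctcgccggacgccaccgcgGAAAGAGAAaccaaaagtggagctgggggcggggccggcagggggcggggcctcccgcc
The match is a description of the letters and was not tested against any binding. The ISRE core was in 1 of the 11 windows here, near its share of 8.11% over the windows of all genes.

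Whether the lines responded differently was tested in 1 model of all 16 arrays. A difference of response between RPMI-8226 and MM.1S was called by limma for 0 of 9 genes with GSK126 (0.783% of all probes), 0 of 9 with UNC0638 (2.89%) and 0 of 9 with the combination (13.3%), and 2, 2 and 3 genes had an unadjusted p under 0.05. The smallest adjusted p was that of STAT3 with UNC0638, whose leading probe had a log2 change of -0.24 in RPMI-8226 and 0.39 in MM.1S (difference -0.63, 95% confidence interval -1 to -0.26, limma adjusted p = 0.0725). Its second probe did not fall in RPMI-8226, with means of -1.83 with DMSO and -1.82 with UNC0638. In MM.1S that probe had means of -2.03 and -1.6. SOCS1 with the combination had a difference of -1.27 (-2.31 to -0.23, limma adjusted p = 0.103). Leaving out 1 RPMI-8226 array brought single genes past the threshold: USP18 with GSK126 without GSK126 replicate 2, USP18 with UNC0638 or the combination without either GSK126 array, and STAT2 with UNC0638 and IFNAR1 with the combination without DMSO replicate 1. With DMSO alone the lines differed for 5 of 9 genes, against 57.7% of all probes: STAT3 was higher in RPMI-8226, and IFNAR1, JAK1, STAT2 and USP18 were lower. That count is of leading probes: the second STAT3 probe was not called, and the USP18 call was lost with normexp correction. Of all probes 28.4% were called higher in RPMI-8226 and 29.3% lower.

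Ordered by group mean, STAT2, JAK1 and IFNAR1 had all MM.1S groups above all RPMI-8226 groups. The STAT2 groups ran in MM.1S from 5.63 with the combination through UNC0638 and GSK126 to 4.75 with DMSO, then in RPMI-8226 from 3.90 with the combination to 3.08 with DMSO, and only the 3 lowest, all RPMI-8226, overlapped their neighbours. The JAK1 groups began with the 4 of MM.1S, from 0.08 with the combination to -0.32 with DMSO, the last of which overlapped the RPMI-8226 combination at -0.55. The other RPMI-8226 groups of JAK1 followed at -1.27 to -1.30 and overlapped. The IFNAR1 groups of MM.1S stood first, at 2.03 to 1.69, where DMSO, the combination and UNC0638 overlapped, and those of RPMI-8226 followed at 0.54 to 0.12, where GSK126 and DMSO overlapped. Both lines were mixed in the other orders. The leading STAT3 probe was highest in RPMI-8226 with GSK126 (-0.47) and the combination (-0.59) and lowest in MM.1S with GSK126 (-1.43) and DMSO (-1.56), and the 4 groups between them overlapped in turn. For USP18 the MM.1S groups with the combination (-1.70) and UNC0638 (-2.25) stood apart above all others, MM.1S with GSK126 (-3.15) overlapped RPMI-8226 with the combination (-3.24), and MM.1S with DMSO (-3.79) overlapped RPMI-8226 with GSK126 (-4.41). The 5 highest IFNAR2 groups, from MM.1S with DMSO (4.04) to MM.1S with GSK126 (3.65), overlapped in turn, and RPMI-8226 with the combination (3.58), MM.1S with UNC0638 (3.43) and MM.1S with the combination (3.12) followed, none of which overlapped its neighbours. Of the SOCS1 groups, from MM.1S with the combination (-0.99) down, the lowest, RPMI-8226 with UNC0638 (-2.59), was the only one not to overlap its neighbour.

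The genes downstream of the pathway were described from fixed lists. Of the type I interferon response genes, the combination raised 13 of 22 tested in RPMI-8226 and lowered 0, with a median log2 fold change of 1.77, where 7.2% of all probes were called higher and 5.17% lower. In MM.1S it raised 16 of 23 and lowered 1, HERC5, with a median of 1.65, where 22.2% of all probes were called higher and 31.7% lower. Under GSK126 alone 2 of 22 rose in RPMI-8226 (0.599% of all probes called), and 7 of 23 rose and 1 fell in MM.1S (7.58%). UNC0638 alone raised 0 of 22 in RPMI-8226 (0.634%) and 15 of 23 in MM.1S (29.3%). XAF1, a pro-apoptotic interferon-stimulated gene, was in MM.1S at -4.47 and -6.30 with DMSO, 1 of them above background, and at 0.62 and 0.85 with the combination (log2 6.12 ± 0.55, limma adjusted p = 0.000487). In RPMI-8226 XAF1 read -5.05 on both DMSO arrays, not above background, and -1.13 and -0.69 with the combination, at least 11.2-fold higher (limma adjusted p = 0.000582). RSAD2, the antiviral enzyme viperin, was at -6.82 and -6.75 with DMSO in MM.1S, not above background, and at -0.40 and -0.25 with the combination, at least 22.1-fold higher (limma adjusted p = 9.92e-05). IFIT1, which binds foreign RNA, rose 7.06-fold in RPMI-8226 (limma adjusted p = 0.0102) and 23.4-fold in MM.1S (limma adjusted p = 0.000303). IFI44L rose with the combination at least 11.6-fold in RPMI-8226 (limma adjusted p = 0.0165) and at least 21.4-fold in MM.1S (limma adjusted p = 0.000265).

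The 2 GSK126 arrays of RPMI-8226 differed for these genes. Replicate 1 was above replicate 2 for IFI44L (-1.59 and -3.20), RSAD2 (-2.38 and -5.36), XAF1 (-1.90 and -2.69) and IFIT1 (0.26 and -0.86), as it was for USP18 and SOCS1. It is also the array with the lowest 75th percentile of intensity, 256. The part of that in these values was not tested.

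**Figure D4:**
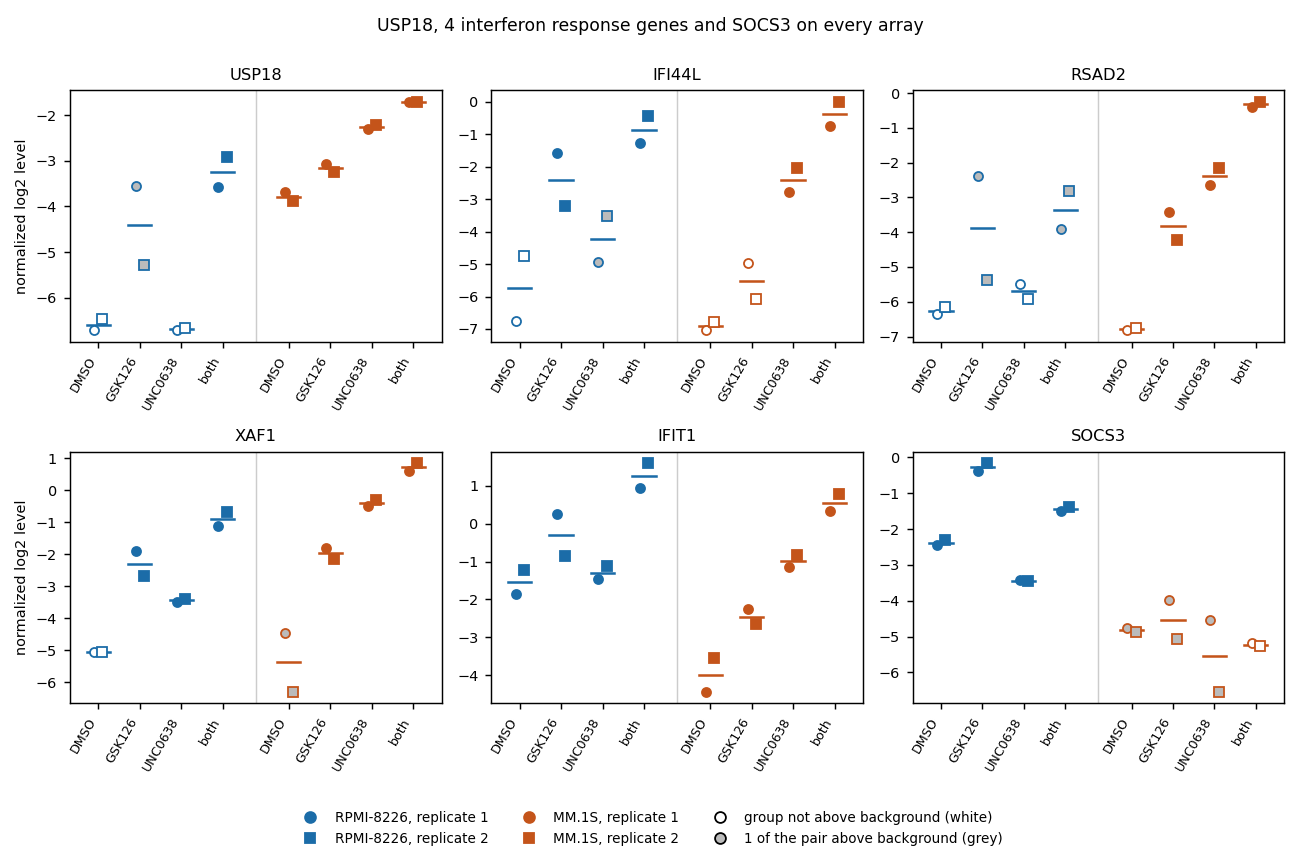
Normalized log2 level (y axis) of USP18, 4 interferon response genes and SOCS3 on every array, by line and treatment ("both" is the combination), with bars at the mean of each pair; white marks a group with neither array above background and grey a group with 1 of 2. In MM.1S USP18 and the 4 response genes are highest with the combination, and in RPMI-8226 the circle of the GSK126 pair is the higher of the pair for these 5 genes, while SOCS3 is high with GSK126 and low with UNC0638.

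The ligands were mostly undetected. Of 24 symbols listed, 17 are on the array, and only IFNA4, IL28A and IL29 were well above background on any array, on 9, 14 and 2 of the 16. Both IL29 arrays were those of MM.1S with UNC0638, where it rose at least 1.43-fold (limma adjusted p = 0.0108). Its probe passed the filter only through that group, so the call is not independent of the filter. No other ligand was called for a treatment against DMSO in either line. IFNB1 and IFNG were above background on 0 of 16. By qRT-PCR, shown for RPMI-8226 and another myeloma line but not for MM.1S, the study found IFNA1, IFNA2 and IFNB1 higher with dual inhibition. It also reported no rise of the IFNL genes. IFNA1 has no probe under that symbol here, and a probe without signal does not show that its gene was silent.

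Of 10 other receptor chains, kinases and STATs tested, 3 rose and 0 fell with the combination in RPMI-8226 (median log2 fold change 0.24), and 5 rose and 1 fell in MM.1S (median 0.34). Of all probes 12.4% and 53.9% were called, so that the MM.1S count was near the background. JAK3, which serves the common gamma chain receptors, rose 1.72-fold in RPMI-8226 (limma adjusted p = 0.0484) and 3.61-fold in MM.1S (limma adjusted p = 0.000135). STAT4, which acts below the interleukin-12 receptor, rose 2.87-fold in RPMI-8226 (limma adjusted p = 0.0148) and differed by 0.31 in MM.1S (limma adjusted p = 0.289). STAT6, which acts below the interleukin-4 receptor, rose 2.33-fold in MM.1S (limma adjusted p = 0.000855) and differed by 0.30 in RPMI-8226 (limma adjusted p = 0.219). STAT5A, a relative of STAT3 also used by interleukin receptors, rose in MM.1S from arrays not above background, at least 3.60-fold with GSK126 (limma adjusted p = 0.0225) and at least 3.71-fold with the combination (limma adjusted p = 0.00291).

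Of the other negative regulators, 1 of 15 rose with the combination in RPMI-8226, and 2 rose and 2 fell of 14 in MM.1S, fewer for the size of the list than the 12.4% and 53.9% of all probes called. The RPMI-8226 gene was SOCS3, which blocks JAK kinases at interleukin-6 type receptors. It read -2.45 and -2.30 with DMSO, -0.37 and -0.16 with GSK126, -3.43 and -3.45 with UNC0638, and -1.50 and -1.38 with the combination. It rose with GSK126 (log2 2.11 ± 0.15, limma adjusted p = 0.00828), fell with UNC0638 (log2 -1.06 ± 0.15, limma adjusted p = 0.0403) and rose with the combination (log2 0.93 ± 0.15, limma adjusted p = 0.0116). In MM.1S SOCS3 was not tested, being above background on at most 1 array of a group. There the STAT inhibitor PIAS3 rose 1.52-fold (limma adjusted p = 0.00121) and SOCS5 1.41-fold (limma adjusted p = 0.00828), and the phosphatase PTPN6 fell to 0.727 (limma adjusted p = 0.0175).

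Of 7 genes often listed as STAT3 targets, 1 rose and 0 fell with the combination in RPMI-8226, and 3 rose and 2 fell in MM.1S, counts near the 12.4% and 53.9% of all probes called. TIMP1, an inhibitor of matrix metalloproteinases, rose 2.30-fold in RPMI-8226 (limma adjusted p = 0.0275) and 2.77-fold in MM.1S (limma adjusted p = 0.000968), and BCL3 rose 1.32-fold in MM.1S (limma adjusted p = 0.00733). The anti-apoptotic BCL2L1 fell to 0.664 (limma adjusted p = 0.0102) and the kinase PIM1 to 0.812 (limma adjusted p = 0.0429) in MM.1S.

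For the genes called with the combination, the likeness of other genes was described by Pearson's r over the 8 group means, each centred within its line, among 14842 genes. With 8 means that share their arrays high values are common, and no test was made. STAT2 was most like CD63 (r = 0.994), UBD (0.99) and IRF9 (0.989), its partner in the ISRE-binding complex. USP18 was most like WSB2 (0.993), LAMP3 (0.992) and PDE4DIP (0.99), IFNGR1 was most like NCK2 (0.999), ZNF462 (0.996) and ITGAM (0.994), and STAT3 was most like IDUA (0.991), DRAM1 (0.991) and IL15 (0.988). IFNAR2 was most like MRPL53 (0.995), UQCRQ (0.994) and REXO2 (0.993). JAK1 was most like LOC100289379 (0.979), LOC644145 (0.978) and PKIA (0.974), and SOCS1 was most like SNORA47 (0.973), FKBP8 (0.969) and LOC100127886 (0.965).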

How the data were processed

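Total RNA was labelled with Cy3 and hybridised to 1 array per sample, and the authors deposited the output of Agilent Feature Extraction (10.7 per the labels, 10.7.3.1 per the file headers) as a linear intensity per spot, background-subtracted and detrended but not normalized between arrays. A deposited table of the whole series holds the same intensities rounded, equal for 99.9956% of 939472 values. The flags for background, saturation and outliers, also deposited, were used as filters.

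Spots of each probe were averaged after control and outlier-marked spots were left out (3 arrays had a marked spot, all of the STAT3 probe that is spotted 10 times), intensities were taken as log2, and the 75th percentile of the array was subtracted. A probe was tested where some group had it well above background on each of its arrays, which kept 23199 in RPMI-8226, 25102 in MM.1S and 26931 over both lines. Where a single group let a probe pass, calls of that group as higher are not independent of the filter. limma 3.58.1 in R 4.3.3 (lmFit and eBayes) was fitted to the 8 arrays of a line, or to all 16 for differences between lines, and p-values were adjusted by Benjamini-Hochberg, with calls under 0.05. The fit was also run on simulated data with independent noise on each array. Those data lack the deviations shared by same-numbered arrays, so they do not check the fit for these. The number of arrays, 2 a group, limits the precision.

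The study's methods name no test for the arrays. The 9 genes and the lists were chosen with earlier results of these data known. Named beyond the 9 genes were up to 4 called genes of each list with the largest change with the combination in either line, and the 3 genes most alike to each called one; HERC5 and the ligands were named because their counts were small, after their values were seen. For a gene with several probes the leading probe was the one above background on the most arrays, then the one with the highest mean level. Gene names are those of the array's design.

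The titles number the replicates. In RPMI-8226 the deviations from the group mean of arrays with the same number correlated in 6 of 6 group pairs (r 0.254 to 0.415). The reported fits hold no term for this, and the replicate block is only among the alternatives. With the block, calls over all RPMI-8226 probes went from 139 to 512 for GSK126 and from 2870 to 4759 for the combination. Replicate number and row of the slide cannot be told apart. The labels do not say what a number stands for.

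The alternatives tried were normexp correction of the background (offset 50), quantile normalization, a filter on all arrays or none, the percentile over detected probes, outlier spots kept, the series table, the mean over probes, a replicate block, an intensity-dependent prior, other sets of arrays in the fit, and leaving out each array in turn, where the lone array left is assumed to vary like the other groups. An item of the marker lists is not reported here.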

Additional observations from a re-analysis of the deposited data

How the results depend on the processing

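Of 3104 values of the 9 genes under the alternatives, 2969 kept their direction and side of the threshold, 78 lost the call, 57 gained it and 0 called values turned. STAT2, STAT3, IFNAR2 and USP18 with the combination in MM.1S were called under every alternative run. Of 346 counts of called genes, 286 stayed within 1.5 times the reported count. The cause of the other moves was not tested. With GSK126 in MM.1S (1 called) the count was 0 with quantile normalization, no filter, only the compared groups or 1 fit of both lines, 2 with normexp correction, and 3 with the replicate block or the intensity-dependent prior. For the combination against GSK126 in MM.1S (4 called) it was 7 with normexp correction, the replicate block or the percentile over detected probes, and 2 in 1 fit of both lines. Against UNC0638 in MM.1S (2 called) it was 0 with no filter, only the compared groups or 1 fit of both lines. In RPMI-8226 the combination against DMSO (2 called) gave 1 under the filter on all arrays, where USP18 was not tested. Against UNC0638 (1 called) it gave 0 under that filter, 2 with the replicate block, the prior or the mean over probes, and 3 in 1 fit of both lines, a fit that also gave 1 call with GSK126 (0 called, now USP18) and 1 for the combination against GSK126 (0 called, now JAK1). The difference of the UNC0638 response (0 called) gave 1 with normexp correction or only the compared groups (USP18) and 1 with the percentile over detected probes (STAT3).

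Leaving out each array in turn, the counts in RPMI-8226 ran from 0 to 1 with GSK126, 0 to 0 with UNC0638, 0 to 2 with the combination, 0 to 0 against GSK126, 0 to 1 against UNC0638 and 0 to 0 for additivity. In MM.1S they ran from 0 to 0 with GSK126, 2 to 4 with UNC0638, 5 to 7 with the combination, 2 to 4 against GSK126, 0 to 1 against UNC0638 and 0 to 0 for additivity. They ran from 0 to 1 for each difference of response and from 5 to 5 for the DMSO arrays.

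Same-numbered MM.1S arrays deviated together in 5 of 6 pairs of groups over 0.1 (r 0.085 to 0.225), and the reported MM.1S fits hold no replicate term either. The replicate block moved the counts by over 1.5 times in the comparisons named above. The USP18 difference of the combination's response between the lines was 1.26 and, with normexp correction, -0.44, neither past the test. The share of calls that were higher, over all probes, was 78.7% for the combination against GSK126 in RPMI-8226 and 66.8% with quantile normalization, 79.4% and 68.7% likewise against UNC0638, and 68.5% for GSK126 in MM.1S and 54.9% with normexp correction. With the percentile over detected probes the share in MM.1S went from 68.5% to 83.4% for GSK126, from 43.7% to 59.8% for UNC0638, from 40.7% to 56.3% for the combination against GSK126 and from 44.8% to 72.2% against UNC0638. Signal over background limits USP18 in RPMI-8226, which has a bound in place of a level with DMSO and UNC0638.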
